A study of Saccharomyces cerevisiae with 10 samples.

Results

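The mRNAs of 9 cyclins and of the cyclin-dependent kinase inhibitor Sic1 were followed in budding yeast after RNA polymerase II was inactivated by heat. The 10 genes were chosen by name, with no measured value in the rule but with earlier results of these data known: the G1 cyclins CLN3 (YAL040C), CLN1 (YMR199W) and CLN2 (YPL256C), the Pho85 cyclin PCL1 (YNL289W), the S phase cyclins CLB5 (YPR120C) and CLB6 (YGR109C), the M phase cyclins CLB3 (YDL155W), CLB1 (YGR108W) and CLB2 (YPR119W), and SIC1 (YLR079W). They are 10 of the 6717 yeast genes measured, and all 10 were detected in every library. By the sample labels the cells were of strain yJC1257, a MATa haploid with ura3, his3 and leu2 auxotrophic mutations. In this strain the gene for the deadenylase Caf1 is replaced by HIS3 and the largest subunit of RNA polymerase II carries the temperature-sensitive rpb1-1 allele. A mid-log culture grown at 24°C was moved to 37°C, and total RNA was taken just before the shift (0 min) and then at 3, 6, 8 and 10 min, at 15, 20 and 30 min, and finally at 45 and 60 min. There was 1 library per time point, so no time point has a replicate, and the rpb1-1 strain with intact Caf1 was not analysed here. Every library after 0 min had both the heat shift and the stop of transcription, and these cannot be told apart.

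Cyclins are the regulatory subunits of cyclin-dependent kinases. In budding yeast the kinase Cdc28 is driven by Cln3 and then by Cln1 and Cln2 through Start, the commitment to a new cycle, by Clb5 and Clb6 through DNA replication, and by the other B-type cyclins through mitosis. Sic1 binds and inhibits the Clb kinases until Cln kinase marks it for destruction. Most of these mRNAs are made in a short window of each cycle, so cells depend on losing them as well as on making them. Caf1, listed under its other name POP2, is a nuclease of the Ccr4-Not complex, which shortens poly(A) tails and so starts the decay of most mRNAs.

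Levels are FPKM, which state fragments per transcript length and per mapped fragment. Each was divided by a spike-in factor, the summed FPKM of the ERCC control RNAs in a library over that at 0 min. This factor lay between 1.05 and 1.42 after 0 min. Estimated depth was 2285000 to 4998500 fragments per library. At 60 min the summed scaled FPKM of all yeast genes was 52.6% of that at 0 min. POP2 had a scaled FPKM of at most 0.887 in any library, against 56.9 for CCR4 at 0 min, and the label of a caf1 deletion goes with this. HIS3 was listed at 0 in every library, which does not go with a HIS3 cassette in place of CAF1. An FPKM of 0 can also be a failed estimate, and which of these holds was not tested. Of the MATa markers, STE2 had 90.5, BAR1 68.3 and STE6 38.3 FPKM at 0 min, while MFA1 was listed at 0 throughout. MFA2, the remaining one, was listed at 0 at 0 and 60 min but reached 493 scaled FPKM in another library. The 4 MATalpha genes summed to at most 12 and the 4 meiosis genes to at most 17.4 scaled FPKM in any library. The culture was in mid-log phase with no synchronisation stated, and in such bulk RNA fewer cells in a cell cycle stage and less RNA per cell cannot be told apart.

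At 0 min the 10 genes spanned from 15.2 FPKM for CLB6 to 147 FPKM for SIC1, with a median of 45.6 FPKM against 38.3 FPKM over the 5439 named genes. All 9 cyclin mRNAs were below 50% of their 0 min level by 6 min, while SIC1 mRNA had 71.8% left. Over the 4664 genes with at least 10 FPKM at 0 min the lower quartile at 6 min was 53.1% and the 10th percentile 41.3%. At 3 min SIC1, with 66.0% left, was not apart from CLB6, with 66.3% left. At 3 min 4 of the 10, CLN3, CLN1, PCL1 and CLB1, were already below 50% of their level at 0 min, a point reached by 3.58% of the 4664 genes that had at least 10 FPKM at 0 min. At 10 min 9 of the 10 were below 50%, against 25.9% of those genes, the exception being SIC1. At 60 min all 10 were, against 70.5% of those genes. The median level of the 10 relative to 0 min was 52.3% by 3 min, 26.9% by 6 min and 10.5% by 60 min. Over the 4664 genes the median was 82.3% by 3 min, 66.9% by 6 min and 35.4% by 60 min.

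**Figure D1:**
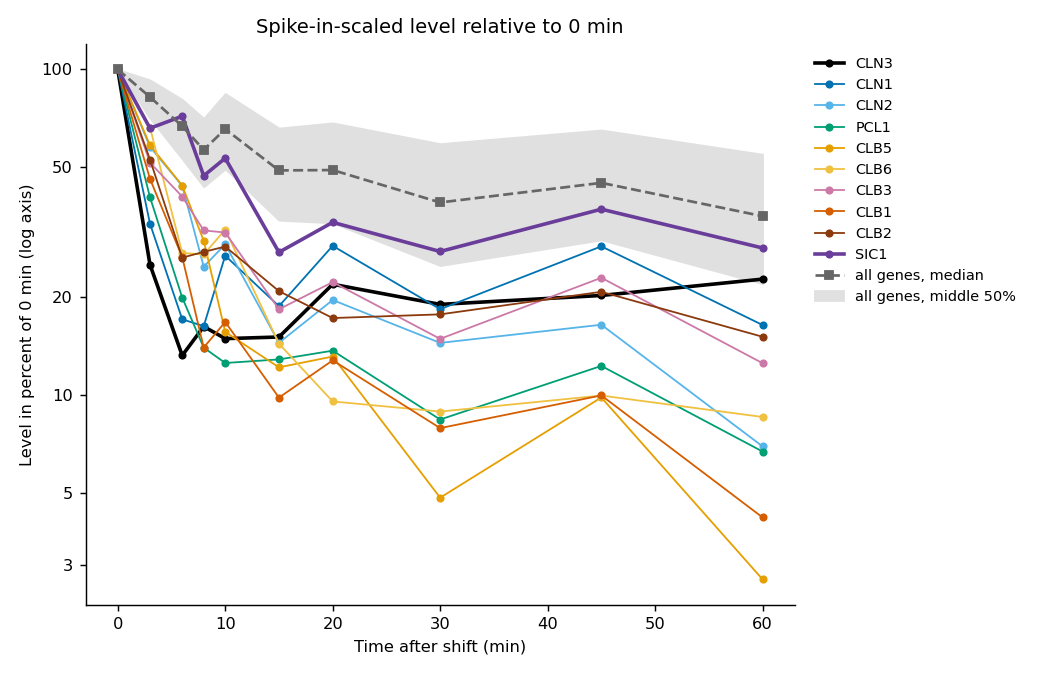
Spike-in-scaled level of each of the 10 mRNAs in percent of its 0 min level (log axis) against time after the shift in min, 1 library per point, with the median (dashed) and the middle 50% (grey) of the 4664 genes with at least 10 FPKM at 0 min. All 9 cyclins lie below the grey band at 6 min, CLN3 lowest at 13.2%, while SIC1 lies at 71.8%, above the median of 66.9%.

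The plot of relative levels also shows shifts that whole libraries share. The median over all genes was 56.6% at 8 min but 65.6% at 10 min, and likewise 39.0% at 30 min but 44.8% at 45 min. Many of the 10 mRNAs step up at 10 and 45 min too, while CLN3, PCL1, CLB5 and CLB3 went down at 10 min. A small step of an mRNA between these neighbours cannot be told apart from a shift of the whole library. The part of the spike-in factor in these steps, 1.25 at 8 min and 1.05 at 10 min, was not tested.

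CLN3 encodes the most upstream G1 cyclin, which starts the chain of events that turns on G1/S transcription. It lies on chromosome I (65778 to 67520, minus strand, 1 exon), where all gene positions here are those of the R64 reference and not of SacCer2, the build of the alignment. Its scaled FPKM was 47.9, 12, 6.33, 7.76 and 7.13 in the libraries of 0, 3, 6, 8 and 10 min, and 7.21, 10.5, 9.08, 9.67 and 10.9 in those of 15, 20, 30, 45 and 60 min. The counting intervals of 0 min (42.6 to 53.5) and 3 min (9.52 to 15.0) lay far apart. The drop was over by 6 min, and no later library was lower. At 3 min the level was 25.1% of 0 min, the 9th lowest relative level among the 4664 genes, and at 6 min it was 13.2%, again the 9th lowest. Over the 5 libraries from 15 to 60 min it stayed at 19.8% ± 3.00 of the 0 min level (SD over time points). The value of 60 min, 10.9, had a 95% counting interval of 8.89 to 13.1 from 108 fragments. That of 6 min, 6.33, had one of 4.32 to 8.92 from 32 fragments. These intervals overlapped slightly, which does not show that both levels were equal. All libraries from 20 to 60 min (9.08 to 10.9) lay above all those from 6 to 15 min (6.33 to 7.76). A difference between these libraries was not tested. After 6 min CLN3 fell no further while the median over all genes declined. At 60 min the relative level of CLN3 was only the 1232nd lowest of the 4664 genes.

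The G1 cyclins CLN1 and CLN2 are paralogs that act together at Start and in bud formation. CLN1 (chromosome XIII, 662644 to 664284, plus strand) had 33.4, 11.2, 5.71, 5.44, 8.96, 6.26, 9.60, 6.13, 9.57 and 5.48 scaled FPKM in the same 10 libraries in order of time. Its course was like that of CLN3, a steep drop to 17.1% at 6 min (counting interval 11.2% to 24.8%) followed by values between 16.3% and 28.7% with no further decline. CLN2 (chromosome XVI, 64977 to 66614, minus strand) had 43.4, 25.1, 19.1, 10.8, 12.6, 6.28, 8.5, 6.27, 7.13 and 3.02 scaled FPKM at the same times. CLN2 fell more slowly at first, with 43.9% left at 6 min, and went on falling to 6.95% at 60 min, 14.4-fold below 0 min against 6.10-fold for CLN1. The coding sequences of the pair are 67.5% identical, and the longest run they share is 17 bases, well under the read length of 100 bases, so that reads can tell them apart. The stretches around that run are shown because the divergence of the CLN1 and CLN2 curves rests on it, with the shared run in capitals and the coding strand 5′ to 3′ (CLN1 at chrXIII:663157-663216, plus strand, and CLN2 at chrXVI:66036-66095, minus strand, R64):
CLN1: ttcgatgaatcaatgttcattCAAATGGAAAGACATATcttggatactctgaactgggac
CLN2: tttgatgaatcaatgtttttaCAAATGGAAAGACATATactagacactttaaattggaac

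PCL1 (chromosome XIV, 87897 to 88736, plus strand) encodes a G1 cyclin of another kinase, Pho85. It was the most abundant cyclin mRNA at 0 min, with 123, 49.99, 24.6, 17.2, 15.5, 15.9, 16.9, 10.4, 15.2 and 8.27 scaled FPKM from 0 to 60 min. PCL1 combined both patterns: it was down to 12.5% of its 0 min level by 10 min, the 17th lowest of the 4664 genes, and then drifted to 6.70% at 60 min, 14.9-fold below 0 min. CLN1, CLN2 and PCL1 are known targets of the G1/S factor SBF, whose core binding site reads CNCGAAA, and many S phase genes carry ACGCGT, the site of its relative MBF. Within 800 bases before the start codon, on either strand, CNCGAAA occurs 3 times at CLN1, 3 times at CLN2 and 4 times at PCL1, and 5 of the 10 genes hold at least 1 copy, against 30.0% of 5439 genes. ACGCGT occurs at 2 of the 10, once at CLN1 and 2 times at CLB6, against 7.78% of genes. These windows can reach into a neighbouring gene, and a match is only a match of letters. The 80 bases with most matches are shown for CLN2 (chrXVI:67143-67222, minus strand), PCL1 (chrXIV:87565-87644, plus strand) and CLB6 (chrVII:706849-706928, minus strand), with the matches in capitals, because they carry the motifs of the factors known to switch these genes on, while the libraries measure what remains once RNA polymerase II has stopped:
CLN2: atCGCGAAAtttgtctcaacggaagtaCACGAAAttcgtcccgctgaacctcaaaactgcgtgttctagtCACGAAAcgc
PCL1: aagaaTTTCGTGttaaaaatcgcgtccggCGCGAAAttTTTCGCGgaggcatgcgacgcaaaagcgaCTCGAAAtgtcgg
CLB6: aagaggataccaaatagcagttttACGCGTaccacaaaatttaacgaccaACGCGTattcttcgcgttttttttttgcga

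CLB5 and CLB6 encode the S phase cyclins, which fire replication origins. CLB5 (chromosome XVI, 773875 to 775182, minus strand) had 20.5, 12, 9.02, 6.10, 3.2, 2.49, 2.69, 0.991, 2.01 and 0.556 scaled FPKM from 0 to 60 min. It lost the largest share of all 10 mRNAs by the end, with 2.71% left at 60 min, the 16th lowest of 4664 genes. That last value rests on 4 fragments, and its counting interval reaches from 0.738% to 6.94%. CLB6 (chromosome VII, 705359 to 706501, minus strand), the mRNA with the lowest level at 0 min, had 15.2, 10.1, 4.15, 4.11, 4.90, 2.19, 1.45, 1.35, 1.51 and 1.3 scaled FPKM. From 15 min on CLB6 rested on 6 to 9 fragments per library, and at 60 min its 8.55% had an interval of 3.69% to 16.8%, which overlaps that of CLB5. The pair shares 64% of its coding bases and no run longer than 15 bases. CLB6 and CLB1 are convergent neighbours with 307 bases between their stop codons, and CLB5 and CLB2 are likewise, with 746 bases, so an S phase cyclin faces an M phase cyclin at both places.

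CLB3, CLB1 and CLB2 encode B-type cyclins that act from spindle formation to mitosis, with Clb2 the main mitotic cyclin. CLB3 (chromosome IV, 176773 to 178056, plus strand) had 29.5, 15.3, 12, 9.45, 9.31, 5.41, 6.55, 4.39, 6.76 and 3.69 scaled FPKM from 0 to 60 min, a decline to 12.5%. CLB1 (chromosome VII, 703636 to 705051, plus strand) had 72.5, 33.4, 19.2, 10.1, 12.1, 7.11, 9.26, 5.73, 7.22 and 3.05 scaled FPKM. It fell below 50% by 3 min and was at 4.2% at 60 min, 23.8-fold lower than at 0 min and the 33rd lowest of the 4664 genes. CLB2 (chromosome XVI, 771653 to 773128, plus strand) had 58.6, 31.0, 15.5, 16.1, 16.7, 12.2, 10.1, 10.4, 12.2 and 8.84 scaled FPKM. CLB2 and CLB1 were level with each other at 6 min, at 26.4% and 26.5% of 0 min, but CLB2 then flattened and kept 15.1% at 60 min. CLB1 and CLB2 are 68.5% identical over their coding bases, and their longest shared run, again of 17 bases, is shown in capitals within 60 bases of each (CLB1 at chrVII:704545-704604 and CLB2 at chrXVI:772622-772681, both plus strand), as the parting of the curves after 6 min depends on reads that tell them apart:
CLB1: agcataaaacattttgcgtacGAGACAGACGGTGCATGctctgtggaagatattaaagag
CLB2: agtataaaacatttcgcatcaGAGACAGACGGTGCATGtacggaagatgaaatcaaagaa

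SIC1 (chromosome XII, 286820 to 287674, plus strand), the inhibitor that holds back the Clb kinases, had 147, 97.1, 106, 69.3, 78.5, 40.4, 49.9, 40.6, 54.7 and 41.6 scaled FPKM from 0 to 60 min. It was the highest of the 10 mRNAs in every library. At 6 min 71.8% was left, with a counting interval of 62.9% to 81.7%. The cyclin with most left at that time, CLB5, was at 44.0% with an interval of 30.3% to 61.7%. Both intervals take the 0 min level as exact. That level had intervals of its own, 90.5% to 110% for SIC1 and 80.6% to 122% for CLB5. A gap between both mRNAs beyond counting error was not tested. SIC1 reached its lowest level, 27.4%, at 15 min and stayed between 27.4% and 37.2% from there on, with 28.3% at 60 min. Among the 4664 genes its relative level was the 791st lowest at 3 min, the 2783rd at 6 min, the 1427th at 10 min and the 1717th at 60 min. Only at 6 min was it above the median over all genes, and at 3 and 15 min it was below their lower quartiles of 70.8% and 34.4%.

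**Figure D2:**
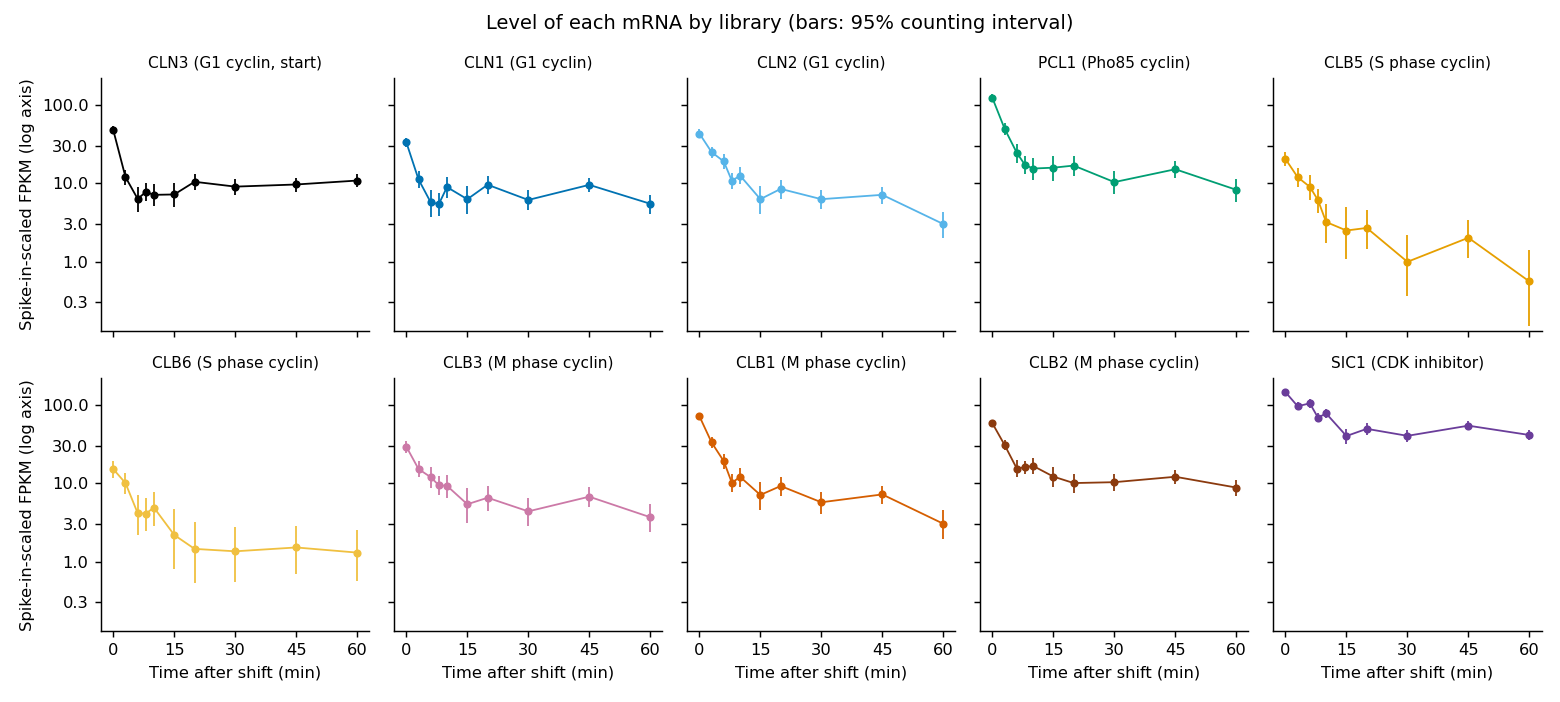
Spike-in-scaled FPKM (log axis) of each of the 10 mRNAs against time after the shift in min. Points are single libraries and bars are 95% counting intervals, which leave out all other error. CLN3 and CLN1 drop within 6 min with no steady decline after it, while CLB5 goes on to 0.556 at 60 min and SIC1 stays at 40.4 or above.

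An exponential decay fixed at the 0 min level was fitted to each mRNA. The fit was kept when its average absolute residual was at most 0.14 of the 0 min level and the half-life at most 60 min. It was kept for 9 of the 10 genes, against 53% of 5285 fitted genes. The median half-life of those 9 was 4.55 min, against 15.8 min over the 2801 genes whose fit was kept, and 8 of the 9 had a half-life under 6 min, against 9.46% of the 2801. The fitted half-lives were 2.0 ± 2.42 min for CLN3, 2.70 ± 1.29 min for PCL1 and 3.14 ± 1.11 min for CLB1 (SE of the fit). The SE of CLN3 was larger than its half-life, so this value is poorly determined. CLB2 followed with 4.40 ± 2.49 min, CLB5 with 4.55 ± 1.05 min, CLB6 with 4.63 ± 1.54 min, CLN2 with 5.02 ± 1.95 min and CLB3 with 5.29 ± 2.64 min. SIC1 was last with 11.8 ± 6.53 min, in the middle range of all genes. CLN1 gave 2.83 ± 2.90 min, but its residual of 0.148 lay just over the limit. No neighbours in this order differed by more than the SE of their difference, also not SIC1 and CLB3, at 6.49 ± 7.04 min. Leaving out 1 library at a time moved the half-life of CLN3 between 1.78 and 2.93 min, that of CLN1 between 2.37 and 3.78 min, and that of SIC1 between 10.5 and 13.8 min.

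**Figure D3:**
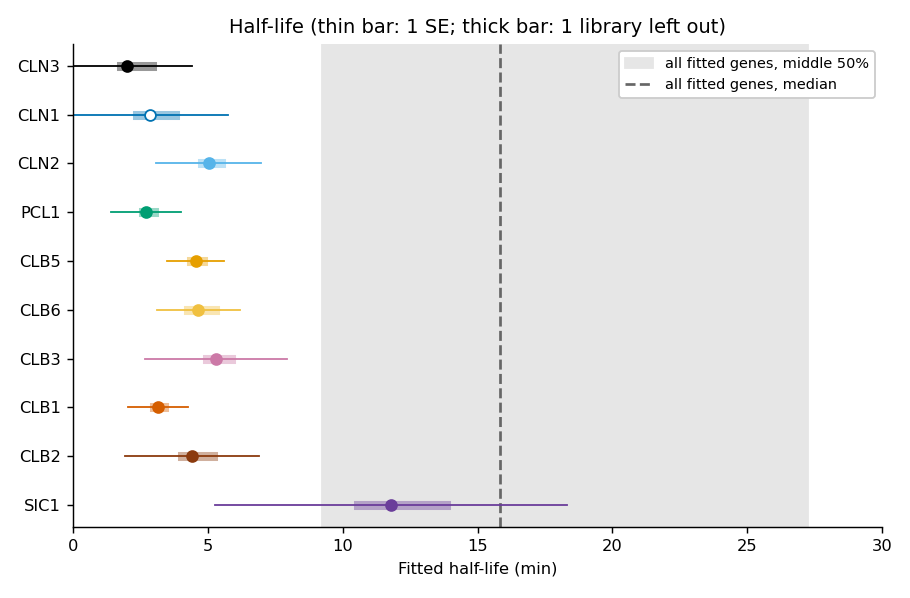
Fitted half-life in min for the 10 mRNAs (points, open where the fit missed the residual limit), with 1 SE of the fit (thin bars, cut at 0) and the range when 1 library is left out (thick bars). The 9 cyclins lie between 2.0 and 5.29 min, left of the middle 50% of all kept fits (grey, 9.22 to 27.3 min), and SIC1 lies within it at 11.8 min.

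A single exponential left out that most curves levelled off. In a fit with a free plateau SIC1 levelled at 29.8% ± 4.62 of its 0 min level (SE), CLN1 at 21.3% ± 2.18, CLB2 at 18.7% ± 1.60, CLB3 at 18.5% ± 2.30 and CLN3 at 17.9% ± 1.32. CLN2 levelled at 13.5% ± 2.38, PCL1 at 10.5% ± 0.963, CLB6 at 9.19% ± 2.99, CLB1 at 8.77% ± 1.33 and CLB5 at 6.23% ± 2.18. The fast part then had a half-time of 0.810 ± 0.194 min for CLN3 and 1.03 ± 0.302 min for CLN1, both shorter than the gap to the library at 3 min and so set by very few points. For SIC1 the half-time was 4.80 ± 1.05 min, still the longest of the 10, with CLB5 next at 3.88 ± 0.335 min. All 10 half-times were shorter than the half-lives fitted without a plateau, which a plateau above 0 tends to bring about by the form of the fit. The SE of the plateau fit took the noise as equal at all levels and the 0 min level as exact. They are thus not comparable with the SE of the half-lives.

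The question whether each level declined over the whole hour was put to limma, with log2(scaled FPKM + 1) fitted to time as a straight line for the 6045 genes whose FPKM averaged 1 or more. Of the 10 genes 8 fell and 0 rose at a Benjamini-Hochberg adjusted p of 0.05, against 52.8% of all genes tested that fell. All 10 slopes were below 0, as was the median slope of all genes tested. The median slope was -0.35 log2 per 10 min for the 10 genes, against -0.17 for all genes tested. CLB5 fell with a slope of -0.52 ± 0.11 log2 per 10 min (SE, limma adjusted p = 0.00255), CLB1 with -0.49 ± 0.12 (limma adjusted p = 0.00561) and CLN2 with -0.43 ± 0.09 (limma adjusted p = 0.00313). PCL1 fell with a slope of -0.39 ± 0.12 (limma adjusted p = 0.0214) and CLB6 with -0.39 ± 0.10 (limma adjusted p = 0.00837). The slopes of CLB3 (-0.31 ± 0.08, limma adjusted p = 0.00970), CLB2 (-0.28 ± 0.09, 0.0259) and SIC1 (-0.23 ± 0.08, 0.0220) were less steep. CLN3 and CLN1, the mRNAs with the lowest levels at 6 min relative to 0 min, did not pass, with slopes of -0.08 ± 0.12 (limma adjusted p = 0.601) and -0.15 ± 0.11 (limma adjusted p = 0.258). A straight line over 60 min gives little weight to a drop that was over at 6 min, and without the 0 min library the CLN3 slope was 0.06 and still not called. Over 0 to 20 min alone neither gene passed, with slopes of -0.74 for CLN3 (limma adjusted p = 0.175) and -0.60 for CLN1 (limma adjusted p = 0.212). Without the 60 min library PCL1 no longer passed (limma adjusted p = 0.0564), without the 3 min library CLB2 did not (0.0580), and without the 0 min library SIC1 did not (0.0510). With every library scaled to the same summed yeast FPKM, 4 of the 10 fell (CLN2, CLB5, CLB6 and CLB1), against 1504 fallen and 721 risen genes of 6090, where the spike-in scaling gave 3189 fallen and 97 risen.

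**Figure D4:**
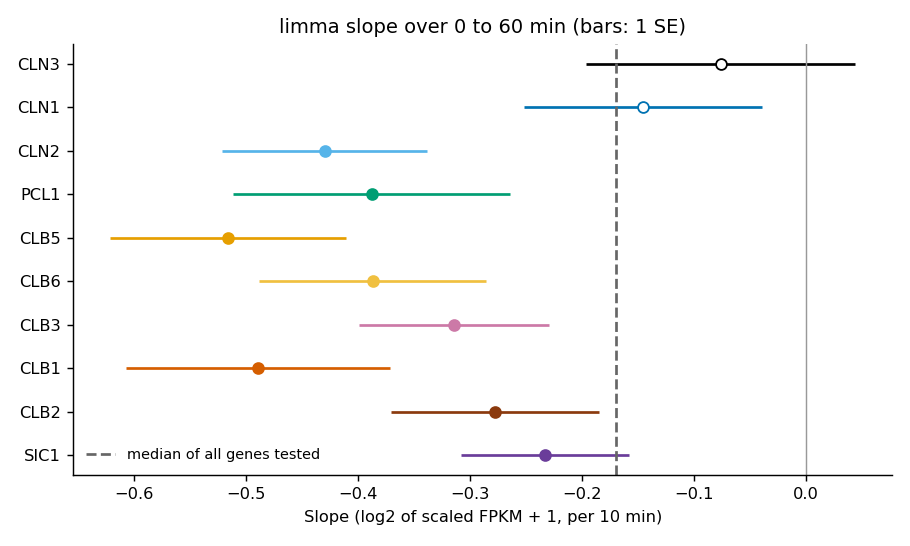
Slope of log2(scaled FPKM + 1) over 0 to 60 min, per 10 min, for the 10 mRNAs (points with 1 SE, filled where the gene fell in limma, open where it did not pass) with the median of all 6045 genes tested (dashed). CLB5 at -0.52 and CLB1 at -0.49 lie farthest left, and CLN3 at -0.08 and CLN1 at -0.15 lie right of the median of -0.17.

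Ratios within a library are nearly free of the spike-in scaling and compare mRNAs that met the same heat and handling. For 5 pairs the log2 ratio, with 1 added to each level, was correlated with time over the 10 libraries by a permutation test (two-sided, p adjusted over the 5 pairs). The ratios given in plain numbers are without this pseudocount. CLN1 over CLN2 was 0.770, 0.447, 0.299, 0.506 and 0.711 in the libraries of 0, 3, 6, 8 and 10 min, and 0.998, 1.13, 0.978, 1.34 and 1.82 in those of 15, 20, 30, 45 and 60 min. CLN1 was thus the minor partner up to 10 min and the major one at 45 and 60 min, with a low at 6 min, and the log2 ratio rose with time (Pearson r = 0.796, permutation p = 0.00542, adjusted p = 0.00903; Spearman rho = 0.830, permutation p = 0.00467, adjusted p = 0.00778), with r = 0.641 without 45 and 60 min. CLB1 over CLB2 went the other way, with 1.24, 1.08, 1.24, 0.629, 0.726, 0.582, 0.917, 0.553, 0.594 and 0.345 in the same libraries (r = -0.800, permutation p = 0.00363, adjusted p = 0.00903; rho = -0.855, permutation p = 0.00314, adjusted p = 0.00778; r = -0.674 without 45 and 60 min). CLB1 was the higher of both up to 6 min and the lower in each library after it. CLB5 over CLB6 moved between 0.427 and 2.17 with no trend that passed (r = -0.525, permutation p = 0.12, adjusted p = 0.12; rho = -0.467, permutation p = 0.181, adjusted p = 0.181; r = -0.372 without 45 and 60 min), and without the 10 min library alone it passed, at r = -0.706 (permutation test, adjusted p = 0.0340).

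SIC1 over CLB5, the inhibitor against an S phase cyclin that its protein inhibits, climbed over time. With a pseudocount of 1 the log2 ratio, to which r and rho belong, went from 2.78 at 0 min to 4.78 at 60 min. The plain ratio that follows has no pseudocount. The ratio was 7.18, 8.10, 11.7, 11.4, 24.5, 16.2, 18.5, 41.0, 27.2 and 74.8 in order of time (r = 0.846, permutation p = 0.000920, adjusted p = 0.00460; rho = 0.891, permutation p = 0.00118, adjusted p = 0.00590; r = 0.818 without 45 and 60 min). With a pseudocount of 5 the rise no longer passed (r = 0.469, permutation test, adjusted p = 0.173), and the last ratio rests on 4 CLB5 fragments. The G1 cyclin CLN2 over the mitotic cyclin CLB2 was 0.741 at 0 min, 1.23 at 6 min, its highest, and 0.341 at 60 min, its lowest. CLN2 declined relative to CLB2 by Pearson r (-0.716, permutation p = 0.0190, adjusted p = 0.0238) but not by rank (rho = -0.624, permutation p = 0.0615, adjusted p = 0.0769), and r was -0.367 without 45 and 60 min and -0.604 with a pseudocount of 5, where it did not pass (permutation test, adjusted p = 0.116). The 60 min library carried much of each call. Without it the 4 called ratios gave r = 0.723, -0.660, 0.774 and -0.460 in the order above, with adjusted p of 0.0661, 0.0769, 0.0507 and 0.268 in the permutation test, none of which passed. There was 1 library per time point, so these p-values describe order in time and not repeated experiments.

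**Figure D5:**
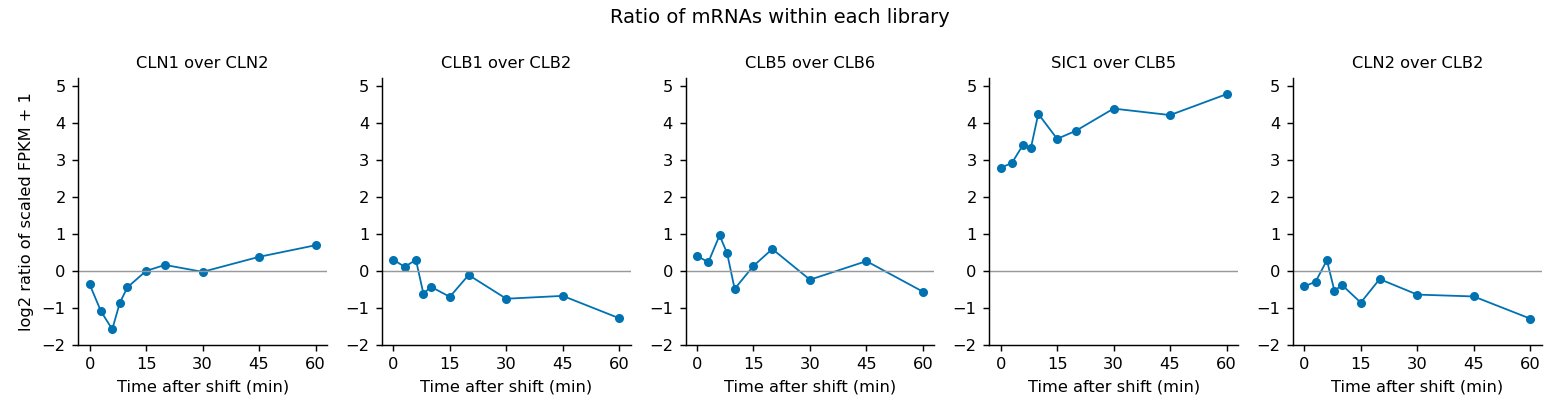
log2 ratio of scaled FPKM + 1 between mRNAs of the same library against time after the shift in min, for 5 pairs, 1 library per point. CLN1 over CLN2 turns upward after 6 min and ends at 0.69, CLB1 over CLB2 ends at -1.28, and SIC1 over CLB5 starts at 2.78 and ends at 4.78.

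The transcripts differ in sequence as well as in course. The study scored genes by published definitions of codon optimality and set them against half-lives in caf1Δ cells relative to wild type. Here codons were instead classed as optimal or non-optimal after the study's reporter pair, which codes the same protein with different codons for 9 amino acids. By this class 68.9% of the classed codons of CLN3 were optimal, 62.5% of CLN2, 54.0% of PCL1, 51.4% of CLB1, 50.4% of CLB6, 49.2% of CLB5, 47.6% of SIC1, 47.4% of CLN1, 43.1% of CLB3 and 39.7% of CLB2. This order was not that of the fitted half-lives, though their SE left the order of the half-lives itself open. CLN3 and CLN2 came first with 2.0 and 5.02 min. CLN1, whose fit was not kept, and SIC1 stood side by side with 2.83 and 11.8 min. The median of the 10 was 49.8%, against 52.7% over 5420 genes. The letters TGCAT, DNA form of the motif bound by Whi3, a protein known to hold CLN3 mRNA, were counted on the sense strand of the coding sequences. They occur 5 times in CLB3, 3 times each in CLB5 and CLB1, 2 times each in CLN3, CLB6 and CLB2, once in CLN2 and SIC1 and not in CLN1 or PCL1, and 64.6% of 5439 genes hold at least 1. The density in CLB3, 3.89 per kilobase, was higher than in 98.6% of genes. One of the TGCAT copies of CLB1 and of CLB2 lies in the run printed above that both share. TGTANATA, a core of Puf protein sites, was found in the 200 bases downstream of the stop codon of CLB5 alone, against 14.8% of genes.

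Other mRNAs took nearly the same course. The likeness was measured as the root mean square difference of the log2 course over 9 times among the 4664 genes. Nearest to CLN2 were PSD1, a phosphatidylserine decarboxylase, at 0.189, CDC14, the phosphatase of mitotic exit, at 0.241, and MCD1, the kleisin subunit of cohesin, at 0.261. Nearest to CLB2 were RIM2 at 0.188, GIC1, an effector of the GTPase Cdc42, at 0.199, and TAT2, an amino acid transporter, at 0.200. SIC1 was most like DIG1, a repressor of mating genes, at 0.158, MSC2, a metal transporter, at 0.165, and IKI1, a subunit of Elongator, at 0.171. CLN2 had the least close neighbours of these 3 mRNAs.

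The wider cell cycle machinery was counted in 5 lists in the same limma fit, against the 52.8% of all genes tested that fell. Of the kinase Cdc28, its partners and related regulators 8 of 11 fell and 0 rose, with a median slope of -0.17 log2 per 10 min. FAR1, which inhibits Cln kinase in response to pheromone, had the lowest slope at -0.34 ± 0.09 (limma adjusted p = 0.00893), and WHI5, the repressor of Start, the highest at -0.10 ± 0.05 (limma adjusted p = 0.10), from only 3.14 FPKM at 0 min. CDC28 itself, the kinase that the cyclins drive, had 41.0% of its 0 min level left at 60 min, above all 10 genes. Of the transcription factors of the cell cycle 7 of 13 fell and 0 rose (median -0.19), with NRM1, a repressor of MBF genes, lowest at -0.42 ± 0.10 (limma adjusted p = 0.00445) and FKH2, a forkhead factor of the CLB2 gene cluster, highest at -0.06 ± 0.06 (limma adjusted p = 0.370). Of the ubiquitin ligase subunits and activators and the mitotic exit regulators, 4 of 12 fell and 0 rose (median -0.10), a smaller share than of all genes. In that list CDC14 had the lowest slope at -0.50 ± 0.09 (limma adjusted p = 0.00117) and CDC53, the cullin of the SCF ligase, the highest at 0.06 ± 0.04 (limma adjusted p = 0.228), with 100.1% of its 0 min level at 60 min.

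Of the G1/S genes of SBF and MBF, which are made together with CLN1, CLN2, PCL1, CLB5 and CLB6, 9 of 10 fell and 0 rose, with a median slope of -0.44 log2 per 10 min. RAD27, a flap nuclease of replication, had the lowest slope at -0.61 ± 0.09 (limma adjusted p = 0.000748) and POL1, the catalytic subunit of DNA polymerase alpha, the highest at -0.15 ± 0.04 (limma adjusted p = 0.00631). The median half-life of this list was 10.5 min over the 9 genes with a kept fit. Of the G2/M genes expressed with CLB2, 3 of 6 fell and 0 rose (median -0.20), from HST3, a histone deacetylase, at -0.43 ± 0.07 (limma adjusted p = 0.00102) to MYO1, the myosin of the contractile ring, at -0.07 ± 0.04 (limma adjusted p = 0.165). The 5 lists had median half-lives between 7.25 and 17.0 min, against 4.55 min for the cyclins and SIC1, as a description of genes chosen with earlier results of these data known. These medians rest on kept fits only, in the destruction list 4 of 12 genes. The B-type cyclin CLB4, in the list with Cdc28, had 34.1 ± 7.60 min. YOX1 (3.17 min), SWE1 (4.65 min), NRM1 (4.88 min) and CDC14 (5.18 min) lay within the 2.0 to 5.29 min of the 9 cyclins.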

How the data were processed

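RNA of the rpb1-1/caf1Δ strain was sequenced as paired reads, 1 library at each of 10 time points. The authors deposited FPKM per gene without spike-in scaling. The submitters' processing notes name CASAVA, Bowtie 0.12.7, Cufflinks 1.3.0 and the build sacCer2. Labels name both an mRNA and a total RNA kit without saying which was used for a library, so changes of poly(A) tail length may enter the values. The growth protocol in the labels names another strain number than the sample labels, that of the rpb1-1 strain with intact Caf1. The labels thus conflict on the genotype, and the strain of the sample labels was used here. A further culture mentioned in the labels was not used here.

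Each FPKM was divided by the summed FPKM of its 92 listed ERCC spike-ins relative to 0 min. Fragments were estimated from steps of low FPKM values, of which 91.3% to 97.8% per library came within 0.1 of whole numbers. Poisson intervals of 95% cover counting error only, and those in percent of 0 min leave out the error of the 0 min library. Symbols and positions came from RefSeq R64 (6025 of 6717 genes matched), and sequences from the same genome. Half-lives were fitted with scipy 1.17.1, and their SE assumes noise in proportion to the level. The SE of the plateau fit assumes equal noise at all levels and an exact 0 min level. Slopes used limma 3.58.1 in R 4.3.3 with a pseudocount of 1, tested on simulated data. Tests of log2 ratios used a pseudocount of 1 and 100000 permutations, while ratios in plain numbers hold no pseudocount. p-values measure spread around a line in time, not between cultures.

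The members and lists were chosen with earlier results of these data known. Named were all 10 members, the 3 most alike genes of CLN2, CLB2 and SIC1, the lowest and highest slope of each list, POP2 and CCR4. HIS3, the marker genes, CDC28, CLB4, YOX1 and SWE1 were added for context. Alternatives were other scalings, pseudocounts, filters, decay models, a range of 0 to 20 min and leaving out each library. A list of genes, a promoter motif and a member of another list are not reported here.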

Additional observations from a re-analysis of the deposited data

How the results depend on the processing

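The count of 8 falling members became 4 with every library scaled to the same summed yeast FPKM, and 6 as deposited, where CLB2 and SIC1 missed the threshold (limma adjusted p = 0.0624 and 0.0592) and 2433 of all 6070 genes tested fell, with 298 risen. Leaving out 1 library gave 7 to 8 falling, beside 2509 to 3320 of all genes, 8 to 10 with a kept half-life, and a median half-life of 4.14 to 5.09 min. A straight line fitted to the logarithm gave a median half-life of 22.7 min, and it weighs the late part of each curve most. SIC1 gave 26.7 min at the same summed yeast FPKM, 20.1 min with a free start, 42.3 min with the straight line and 4.80 min with a plateau. Over 0 to 20 min no ratio passed, with r of 0.633 for CLN1 over CLN2, -0.554 for CLB1 over CLB2, 0.706 for SIC1 over CLB5 and -0.216 for CLN2 over CLB2. With a pseudocount of 5, SIC1 over CLB5 (0.469) and CLN2 over CLB2 (-0.604) did not pass. Leaving out 1 library, r ranged over 0.723 to 0.854 for CLN1 over CLN2, -0.862 to -0.660 for CLB1 over CLB2, -0.706 to -0.234 for CLB5 over CLB6, 0.774 to 0.942 for SIC1 over CLB5 and -0.778 to -0.460 for CLN2 over CLB2. None of the tried settings turned a called direction round. No paired analysis was possible because the labels give 1 library for a time point. CLB5 and CLB6 rest on under 20 fragments from 10 min on, so their late levels are the least certain.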
